A study of Mus musculus with 59 samples.

Results

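Mpo, Elane, Prtn3, Ctsg and Ms4a3 were described as the primary (azurophil) granule genes. They were taken as a list of symbols, and all 5 were found among the 45706 genes listed for each library. The label used for them, granule proteases, fits Elane, Prtn3 and Ctsg, which encode serine proteases, while Mpo encodes a peroxidase and Ms4a3 a membrane protein. The study measured RNA from mouse bone marrow progenitors of the strain labelled Tcf7eGFP fl/fl Cre+, cultured on OP9-DLL1 stroma, a cell layer that presents a Notch ligand, for 7 days. The cells were then sorted as DN1 or DN2, the first stages of thymocyte development. DN2 cells carried the constructs labelled L1d, L7d or P45. DN1 cells carried L1d, L7d, HMGd, P45 or EV. In the labels of the cell line of the same series, P45 is wild type TCF-1, EV is the empty retroviral vector, and the other constructs are named DL1, DL7 and DHMG. The labels do not spell out what L1, L7 and HMG stand for, and the study's title names an intrinsically disordered domain of TCF-1. The library names of the primary cells add TCF1KO_LSK, so all 8 groups, controls included, share the Tcf7-deficient background. The Cre driver is not given in the labels. Each group held 2 replicates, 16 in all. Neither EV nor HMGd is compared in DN2 cells here.

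Primary granules form at the promyelocyte stage, before the secondary and tertiary granules of later neutrophil stages. Their cargo is made early and stored: Mpo turns hydrogen peroxide and chloride into hypochlorous acid, and the serine proteases are activated by cathepsin C and digest proteins of microbes and of the matrix. TCF-1, the product of Tcf7, is induced by Notch signals and starts the T lineage programme in the thymus, where cells up to the DN2 stage keep some capacity for myeloid fates.

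Depth was 4.17 to 18.96 M reads (M, 1e6) in genes for the 44 primary libraries, and 9.06 to 34.39 M for the 16 replicates, which sum the libraries that share a B number. Tcf7 reads checked the labels: it stood at 3.33 and 4.26 CPM (read counts per 1e6 reads in genes, scaled by TMM) in DN1 EV cells, and at 625.5 to 1109 CPM in the other 14 replicates. Il2ra, which encodes the CD25 used in the sort, stood at 373 to 1278 CPM in the 6 DN2 replicates and at 0.425 to 3.42 CPM in the 10 DN1 replicates. Cd44 was higher in DN1, in the direction of the gate. Kit went against the gate: DN2 P45 cells had 261 and 284 CPM, against 93.2 and 109 CPM in DN1 P45 cells. Nothing states that the replicates came from separate animals or cultures, so p-values measure the spread between these samples.

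The 5 genes lie at 4 places in the mouse genome (GRCm38, GENCODE M21). Mpo, on chromosome 11, spans 87793581 to 87804413 on the forward strand. Prtn3 and Elane are neighbours on chromosome 10, at 79874476 to 79883174 and 79886247 to 79888215 on the forward strand, with 3072 bases between them. Ctsg lies on chromosome 14 at 56099881 to 56102574 and Ms4a3 on chromosome 19 at 11629496 to 11640851, both on the reverse strand. Their exons cover 3424 bases for Mpo, 984 for Elane, 1732 for Prtn3, 1033 for Ctsg and 1884 for Ms4a3. Gm11505 overlaps Mpo and Plppr3 overlaps Prtn3, each on the opposite strand, and strand-specific counts were used.

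The promoter sequences are shown because the 5 genes moved together between the stages (below) and share a short motif. They are RefSeq sequences of GRCm38.p6, written 5′ to 3′ on the gene's strand, from 250 bases before the RefSeq start and ending at most 30 bases into a GENCODE exon, which shortens those of Mpo, Elane and Prtn3. Capitals mark GGAAGT, the core bound by ETS factors such as PU.1, and AACGG, a core bound by MYB.
Mpo, chr11:87793534-87793610, forward strand: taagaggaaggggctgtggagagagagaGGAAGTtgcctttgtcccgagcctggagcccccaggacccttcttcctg
Elane, chr10:79886062-79886276, forward strand: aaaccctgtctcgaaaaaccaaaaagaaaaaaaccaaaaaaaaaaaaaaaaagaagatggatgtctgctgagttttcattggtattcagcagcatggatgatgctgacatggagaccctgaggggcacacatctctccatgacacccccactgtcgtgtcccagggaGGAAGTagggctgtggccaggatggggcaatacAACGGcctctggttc
Prtn3, chr10:79879417-79879643, forward strand: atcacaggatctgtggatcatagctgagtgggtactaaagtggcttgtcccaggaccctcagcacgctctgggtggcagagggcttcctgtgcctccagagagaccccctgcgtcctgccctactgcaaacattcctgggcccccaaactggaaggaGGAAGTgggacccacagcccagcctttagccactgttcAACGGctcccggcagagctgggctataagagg
Ctsg, chr14:56102575-56102824, reverse strand: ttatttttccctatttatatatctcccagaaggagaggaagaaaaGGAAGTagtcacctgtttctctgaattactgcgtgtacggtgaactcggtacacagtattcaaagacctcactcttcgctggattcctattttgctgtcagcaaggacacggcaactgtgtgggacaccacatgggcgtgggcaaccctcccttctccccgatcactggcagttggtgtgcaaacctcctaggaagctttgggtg
Ms4a3, chr19:11640852-11641101, reverse strand: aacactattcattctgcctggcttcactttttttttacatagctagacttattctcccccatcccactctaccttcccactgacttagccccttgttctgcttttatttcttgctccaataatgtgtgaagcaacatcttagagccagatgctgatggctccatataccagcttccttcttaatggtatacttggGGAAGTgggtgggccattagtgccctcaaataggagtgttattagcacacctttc

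The motifs were chosen with the sequences in view and searched on both strands in the 250 bases before each RefSeq start, for the 5 genes and for all 27025 promoters. GGAAGT was present in all 5, on the gene's own strand each time, and in 20% of all promoters. The longer form GAGGAAGT, which contains it, was present in Mpo, Elane and Prtn3, and in 2.44% of all promoters. AACGG was present in the neighbours Elane and Prtn3, ending 46 and 51 bases before the RefSeq start, and in 14.8% of all promoters. GGAAGT ended 78 and 88 bases before that start. For Mpo, Elane and Prtn3 a GENCODE exon begins before the RefSeq start. Part of the 250 bases of Mpo and of Elane thus lies after the GENCODE start of the gene, and the AACGG of Elane lies inside the exon. For Prtn3 all 250 bases do, with both of its marked motifs, since GENCODE starts the gene at 79874476 and the stretch begins at 79879417. Of the other letters searched, TGTGGT, a RUNX core, was in Ctsg and in 14.2% of all promoters, CTTTGA, a TCF/LEF core, was in Mpo and Ctsg and in 14%, and TTGCNNAA, a CEBP-like pattern, was in 0 of the 5 and in 9.55%. The CTTTGA of Mpo lies after the GENCODE start of the gene and outside the stretch printed above. A match describes the letters in this window and does not show binding.

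All 5 genes were lower in DN2 than in DN1 cells, with every construct for which both stages were measured. In P45 cells the fold ranged from 3.31 for Ctsg to 8.97 for Elane. In L1d cells it ranged from 1.76-fold for Mpo to 4.96-fold for Elane, smaller for each gene than in P45 cells, a difference that passed for 0 of the 5 when tested as an interaction. Within DN2 cells, Mpo, Elane, Ctsg and Ms4a3 were higher with L1d than with P45, and Prtn3 did not pass the test. Within DN1 cells none of the 5 passed in any comparison of constructs.

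**Figure D1:**
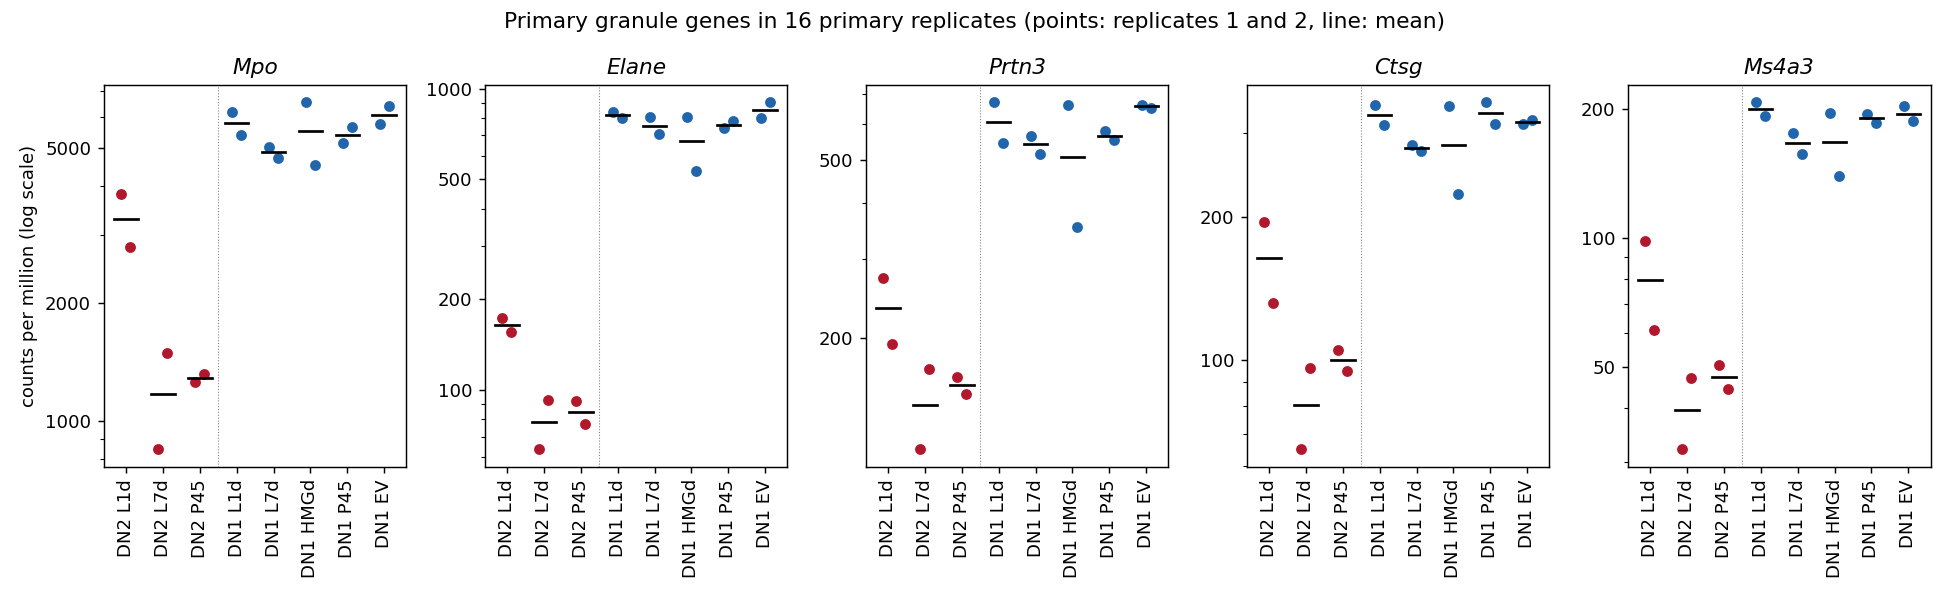
Levels of the 5 genes in CPM on a log scale, in 8 groups with DN2 in red left of DN1 in blue; points are replicates 1 and 2 and the line is their mean. Every DN1 point lies above every DN2 point in each panel, and among DN2 groups the L1d points are the highest.

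Mpo, the peroxidase, was the most abundant of the 5. It had 3806 and 2787 CPM in DN2 L1d cells, 846 and 1495 CPM in DN2 L7d cells and 1255 and 1318 CPM in DN2 P45 cells. In DN1 cells it had 6198 and 5403 CPM with L1d, 5022 and 4721 CPM with L7d, 6546 and 4528 CPM with HMGd, 5151 and 5665 CPM with P45, and 5766 and 6392 CPM with EV. Both DN2 L1d replicates lay between the other DN2 replicates and all DN1 replicates, and the DN2 L7d replicates stood on either side of the P45 pair. Mpo fell by 2.07 on the log2 scale in DN2 P45 against DN1 P45 cells (SE 0.22, edgeR quasi-likelihood test, Benjamini-Hochberg adjusted p = 2.41e-06). With L1d it fell by 0.82 (SE 0.22, adjusted p = 0.00716), a call that was lost without DN1 L1d replicate 1 (adjusted p = 0.0649) or without DN2 L1d replicate 2 (adjusted p = 0.071).

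Elane encodes neutrophil elastase, the protease whose human gene is mutated in congenital and cyclic neutropenia. It had 174 and 156 CPM in DN2 L1d cells, 63.7 and 93.0 CPM in DN2 L7d cells and 92.3 and 77.4 CPM in DN2 P45 cells. In DN1 cells it had 835 and 801 CPM with L1d, 803 and 705 CPM with L7d, 809 and 532 CPM with HMGd, 739 and 782 CPM with P45, and 799 and 902 CPM with EV. The stages lay far apart, with the lowest DN1 replicate, HMGd replicate 2, over every DN2 replicate. Elane fell by 3.16 (SE 0.19, adjusted p = 4.71e-09) in DN2 P45 against DN1 P45 cells, and by 2.31 (SE 0.18, adjusted p = 1.09e-07) in DN2 L1d against DN1 L1d cells, on the log2 scale with the same edgeR test.

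Prtn3 encodes proteinase 3, the autoantigen of a form of human vasculitis. It had 272 and 195 CPM in DN2 L1d cells, 113 and 171 CPM in DN2 L7d cells and 164 and 151 CPM in DN2 P45 cells. In DN1 cells it had 672 and 544 CPM with L1d, 566 and 516 CPM with L7d, 662 and 354 CPM with HMGd, 580 and 553 CPM with P45, and 662 and 653 CPM with EV. HMGd replicate 2 was the lowest DN1 replicate and HMGd replicate 1 was among the highest, so that this pair covered nearly the whole DN1 range. Prtn3 fell by 1.85 (SE 0.24, adjusted p = 1.44e-05) in DN2 against DN1 cells with P45 and by 1.38 (SE 0.24, adjusted p = 0.000255) with L1d, in edgeR's test.

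Ctsg encodes cathepsin G, a protease with chymotrypsin-like activity. It had 195 and 132 CPM in DN2 L1d cells, 65.0 and 96.2 CPM in DN2 L7d cells and 105 and 94.9 CPM in DN2 P45 cells. In DN1 cells it had 344 and 311 CPM with L1d, 283 and 275 CPM with L7d, 341 and 224 CPM with HMGd, 348 and 314 CPM with P45, and 313 and 319 CPM with EV. DN2 L1d replicate 1 came near the lowest DN1 replicate without reaching it. Ctsg fell by 1.72 (SE 0.2, adjusted p = 4.69e-06) in DN2 against DN1 cells with P45 and by 1.0 (SE 0.2, adjusted p = 0.000827) with L1d, in edgeR's test.

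Ms4a3 encodes a tetraspan membrane protein that marks granulocyte and monocyte progenitors. It had 98.3 and 60.8 CPM in DN2 L1d cells, 32.1 and 47.1 CPM in DN2 L7d cells and 50.4 and 44.5 CPM in DN2 P45 cells. In DN1 cells it had 207 and 192 CPM with L1d, 176 and 157 CPM with L7d, 195 and 140 CPM with HMGd, 194 and 185 CPM with P45, and 203 and 187 CPM with EV. The 2 DN2 L1d replicates differed from each other more than the 2 DN2 P45 replicates did. Ms4a3 fell by 2.0 (SE 0.2, adjusted p = 1.03e-06) in DN2 against DN1 cells with P45 and by 1.33 (SE 0.2, adjusted p = 7.29e-05) with L1d, in edgeR's test.

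Counted over the set, 5 of 5 were lower in DN2 P45 than in DN1 P45 cells, where 22.6% of the 15010 genes tested were lower. The median log2 fold change of the 5 was -2.0, against -0.02 for all genes. In L1d cells 5 of 5 were lower in DN2 than in DN1, against 19.7% of all genes, with a median of -1.33. In L7d cells 5 of 5 were lower in DN2 than in DN1, against 21.8% of all genes, with a median of -2.06; Mpo fell by 2.06 and Elane by 3.26 there. The 5 genes moved within a broad change of expression. The comparisons with L1d, L7d and P45 use separate libraries. In bulk RNA, fewer cells of a type and less RNA per cell cannot be told apart.

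Without the TMM factor, 64.5% of the called genes were higher in DN2 P45 than in DN1 P45 cells, against 47.7% with it, and the median of all genes moved to 0.13. The corresponding shares were 71.5% against 50.6% for L1d, with a median of 0.22, and 68.3% against 47.1% for L7d, with a median of 0.19. All 5 genes were still lower in DN2 for each construct, between -3.07 and -0.62 on the log2 scale.

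The RNA of other cell types moved with the stage. In DN2 P45 against DN1 P45 cells 7 of 7 monocyte markers were lower, with summed levels of 555 to 891 CPM in the 6 DN2 and 1393 to 1759 CPM in the 10 DN1 replicates. Of 7 eosinophil markers 5 were lower, with sums of 0.739 to 1.6 CPM in DN2 and 53.0 to 529 CPM in DN1, and with Ear1 and Ear6 at 0 reads in all DN2 groups. Of the 11 T lineage markers tested 8 were higher and 1, Cd6, was lower, with sums over 13 markers of 414 to 1479 CPM in DN2 and 8.71 to 38.1 CPM in DN1. Of 7 mast cell and basophil markers tested 2 were higher and 3 lower (144 to 244 CPM in DN2, 118 to 312 CPM in DN1), and of 5 stromal markers tested 0 passed (43.6 to 403 CPM in DN2, 222 to 652 CPM in DN1), with Dcn at 0 reads in every group. In DN2 L7d against DN1 L7d cells, however, 5 of 5 stromal markers were lower, with a median of -2.15, beside -2.06 for the 5 granule genes there. The stromal sums were 43.6 and 94.96 CPM in DN2 against 377 and 297 CPM in DN1. In L1d cells 0 of 5 stromal markers passed. With a replicate left out neither stromal count was stable. The stromal median then ran from -2.98 to -1.74 for L7d and from -3.23 to -0.24 for L1d. The stromal contrast between L7d and L1d thus depends on single replicates. Of the B lineage markers 0 of 6 passed, of the erythroid markers 1 of 5 was higher, and of the dendritic markers 2 of 4 were higher and 1 lower. With a replicate left out, not all monocyte and mast cell and basophil calls in P45 cells held. The medians of these 2 lists then ran from -1.26 to -1.14 and from -0.71 to -0.42. The part of these other cell types in the fall of the granule genes was not tested.

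The 5 genes shared the direction of the stage difference but not its size. The ratio of Mpo to Elane ran from 13.3 to 21.9 (median 16.6) in the 6 DN2 replicates with L1d, L7d or P45, against 6.25 to 7.42 (median 6.86) in the 6 DN1 replicates with the same constructs. The ratio of Elane to its neighbour Prtn3 was 0.513 to 0.803 in DN2 and 1.24 to 1.47 in DN1 cells. The ratio of Elane to Ctsg was 0.815 to 1.18 in DN2 and 2.12 to 2.84 in DN1 cells, and that of Elane to Ms4a3 was 1.74 to 2.57 in DN2 and 3.8 to 4.58 in DN1 cells. In none of these 4 did the stages overlap, so Elane fell further than each of the other 4. An exact two-sided permutation test over the 12 replicates gave p = 0.00216 for each, the smallest it can give, and adjusted p = 0.00433 over the 10 pairs of genes. These ratios were tested after their values were seen, and they do not depend on the scaling of the libraries.

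Of the other 6 pairs, Ctsg over Ms4a3 also lay apart, at 1.99 to 2.17 in DN2 and 1.61 to 1.79 in DN1 cells (exact permutation adjusted p = 0.00433). Prtn3 over Ctsg was lower in DN2, at a median of 1.57 against 1.82 in DN1, with overlapping ranges (exact permutation adjusted p = 0.0289). The 4 remaining pairs, Mpo with Prtn3, Ctsg or Ms4a3 and Prtn3 with Ms4a3, did not pass. Among them, Mpo over Prtn3 stood at 13.98 and 14.31 in DN2 L1d cells, against 7.47 to 8.75 in the other 4 DN2 replicates.

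**Figure D2:**
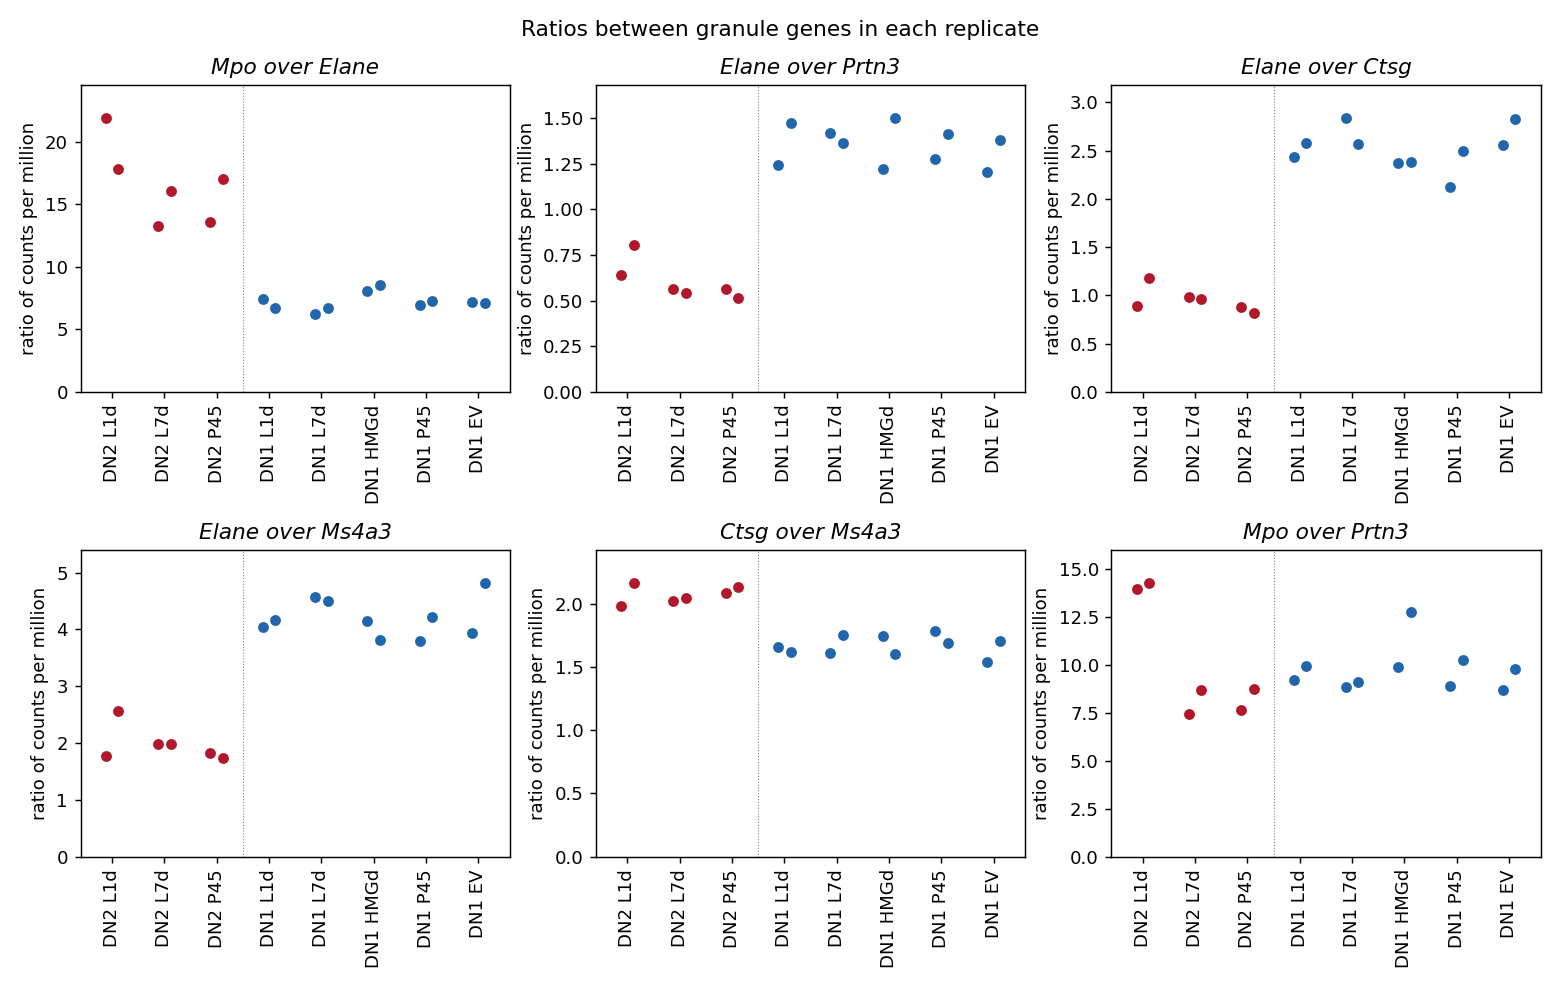
Ratios of CPM between pairs of the 5 genes in each replicate, on linear axes from 0, with DN2 groups in red left of DN1 groups in blue. The 3 panels with Elane on top of the ratio are lower in DN2 and Mpo over Elane and Ctsg over Ms4a3 are higher, while for Mpo over Prtn3 the DN2 L1d pair, at 13.98 and 14.31, lies above all other replicates.

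Per kilobase of exon, which allows levels to be set beside each other, Mpo stood at 376 ± 13.1 CPM per kb in DN2 P45 cells and 1579 ± 106 CPM per kb in DN1 P45 cells (SD, n = 2 each). Elane stood at 86.2 ± 10.7 CPM per kb in DN2 P45 and 773 ± 30.7 CPM per kb in DN1 P45 cells. Prtn3 stood at 90.9 ± 5.43 in DN2 P45 and 327 ± 10.9 in DN1 P45 cells, and Ctsg at 96.9 ± 7.04 in DN2 P45 and 320 ± 23.4 in DN1 P45 cells, in the same unit. Ms4a3 was the lowest at both stages, at 25.2 ± 2.24 CPM per kb in DN2 P45 and 101 ± 3.45 CPM per kb in DN1 P45 cells. On this measure Elane was clearly second in DN1 P45 cells, and in DN2 P45 cells it was within the spread of Prtn3 and Ctsg. The lengths join all GENCODE exons of a gene, and the order depends on them. By CPM alone Prtn3 stood at 157 and Elane at 84.8 in DN2 P45 cells. Together the 5 genes took 0.118% to 0.486% of the reads in genes in DN2 and 0.578% to 0.793% in DN1 replicates. Mpo made up 83.7% of their summed CPM in both DN2 L1d replicates, 75.3% to 78.6% in the other DN2 replicates and 73.3% to 78.4% in DN1.

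The effect of L1d was compared with that of wild type TCF-1 at each stage. In DN2 cells, L1d raised Mpo 2.56-fold over P45 (log2 1.36, SE 0.22, edgeR adjusted p = 0.00114) and Elane 1.95-fold (log2 0.96, SE 0.18, adjusted p = 0.00323). Ms4a3 rose 1.68-fold (log2 0.74, SE 0.2, adjusted p = 0.0273) and Ctsg 1.63-fold (log2 0.71, SE 0.2, adjusted p = 0.032). Prtn3 was 1.48 times as high but did not pass (log2 0.57, SE 0.23, adjusted p = 0.148), with a 95% interval of 1.05 to 2.1-fold that overlaps those of the other 4. That made 4 of 5 higher in edgeR, and 3 in DESeq2, where 8.05% of all genes were higher in edgeR, and the median of the 5 was 0.74 against 0.0 for all genes. Both DN2 L1d replicates exceeded both P45 replicates for each of the 5. The share of all genes that do so was not computed, and the 5 genes share these replicates, so this is no separate support for Prtn3.

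The set of calls was not stable for the smaller changes. Mpo passed in all 13 alternative settings, with log2 values of 1.09 to 1.55, and Elane in 12, losing its call without DN2 P45 replicate 2 (adjusted p = 0.0557). Ctsg passed in 8, not in DESeq2 (adjusted p = 0.0572), and Ms4a3 in 9. Without DN2 L1d replicate 1 the log2 values of Ctsg and Ms4a3 were 0.38 and 0.34, against 0.71 and 0.74 with it, and without either P45 replicate neither passed (adjusted p of 0.0978 to 0.201). With only the 4 replicates of the comparison in the fit, Mpo and Elane were the 2 genes still called.

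Against L7d, the other altered construct measured in DN2 cells, the difference took the same form. L1d cells had 2.82-fold more Mpo (log2 1.49, SE 0.22, adjusted p = 0.00116), 2.1-fold more Elane (adjusted p = 0.00302), 2.02-fold more Ctsg (adjusted p = 0.00765) and 1.99-fold more Ms4a3 (adjusted p = 0.00969), in edgeR's test. Prtn3 was 1.64 times as high and did not pass (adjusted p = 0.101). That was 4 of 5 higher, against 4.73% of all genes. The L1d libraries are the same as in the comparison with P45, so the 2 comparisons are not independent. In a fit of only these 4 replicates 0 of 5 passed (adjusted p of 0.0904 to 0.214 for the 4), and without DN2 L7d replicate 1 only Mpo did. L7d itself against P45 in DN2 cells gave 0 of 5 in edgeR's test and in DESeq2's and 0 at an unadjusted p under 0.05, where 0.293% of all genes passed, with log2 values of -0.31 to -0.11. The interval for Mpo, 0.662 to 1.25-fold, does not reach the fold seen with L1d.

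**Figure D3:**
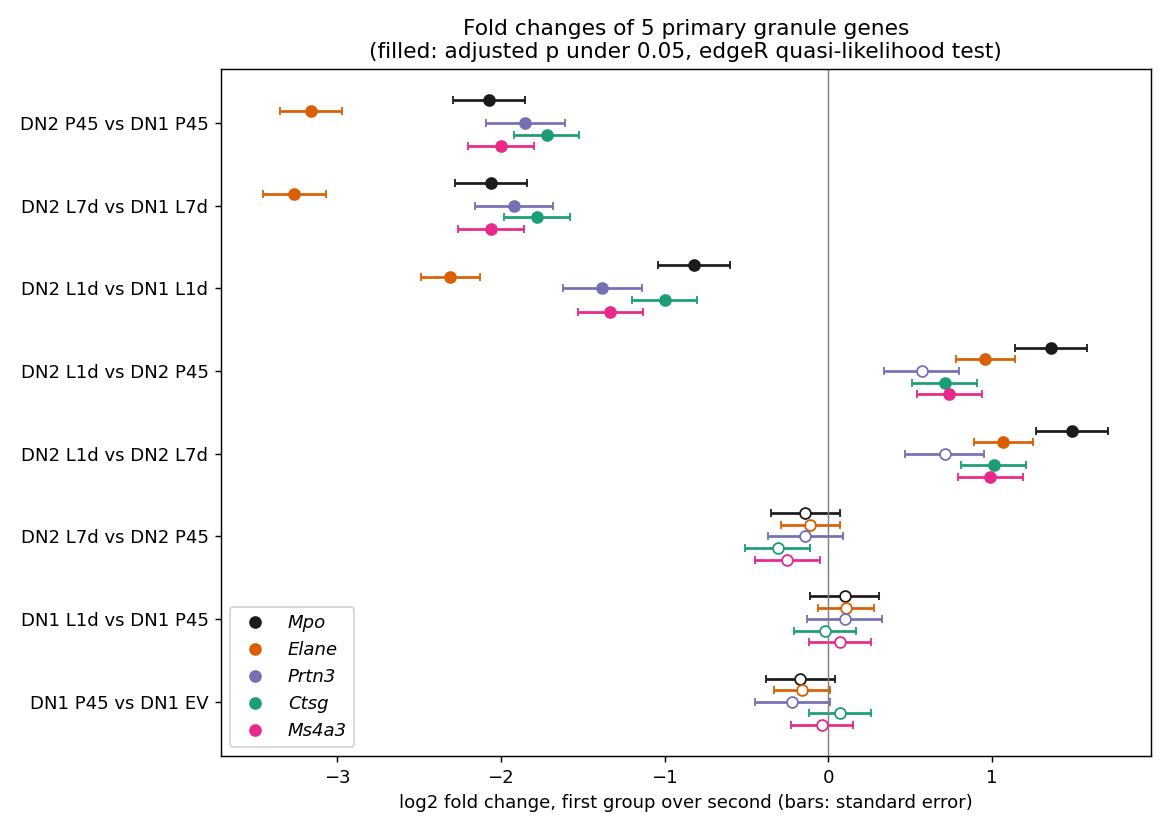
Log2 fold changes of the 5 genes, the first-named group over the second, in 8 comparisons; bars are standard errors and filled points passed an adjusted p of 0.05. The 3 stage comparisons lie left of 0 with Elane farthest, L1d in DN2 lies right of 0 with Mpo farthest, and the last 3 comparisons lie between -0.31 and 0.11 with no filled point.

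In DN1 cells L1d against P45 gave 0 of 5, where 1.33% of all genes passed in either direction. Mpo differed by 0.1 on the log2 scale (95% interval 0.781 to 1.47-fold, edgeR adjusted p = 0.93), Elane by 0.11 (0.836 to 1.38-fold) and Prtn3 by 0.1 (0.764 to 1.51-fold). Ctsg differed by -0.02 (0.744 to 1.31-fold) and Ms4a3 by 0.07 (0.794 to 1.39-fold). The DN1 interval of Mpo excludes the 2.56-fold seen in DN2 (95% interval there 1.85 to 3.54-fold). That of Elane excludes 1.95-fold (1.49 to 2.53-fold). The intervals are not adjusted for the number of genes, and the test between the stages is the interaction, which passed for 0 of the 5. None of the 5 passed in any of the 13 alternative settings.

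Whether L1d acted differently at the stages was tested as an interaction, the log2 difference between L1d and P45 in DN2 minus that in DN1. It was 1.26 for Mpo (SE 0.3, adjusted p = 0.0539), 0.85 for Elane (SE 0.25, adjusted p = 0.106), 0.72 for Ctsg (adjusted p = 0.228), 0.67 for Ms4a3 (adjusted p = 0.273) and 0.47 for Prtn3 (adjusted p = 0.601), in edgeR's test. So 0 of 5 passed, where 1.58% of all genes did. At an unadjusted p under 0.05 the count was 4, all but Prtn3, beside 2089 of the 15010 genes, and DESeq2 called 1, Mpo (adjusted p = 0.0428), beside 443 of all genes. Mpo also passed in a fit of only the 4 groups concerned (adjusted p = 0.0122), in which Elane did too (adjusted p = 0.0113), and without DN2 L1d replicate 2 (adjusted p = 0.0386). The interaction of L7d with stage gave 0 of 5 and 0.0% of all genes, with 0 of the 5 and 712 of all genes at an unadjusted p under 0.05, and 0 of the 5 and 11 of all genes in DESeq2.

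In the remaining DN1 comparisons too, none of the 5 genes passed. Over all 8 DN1 comparisons, 0 of 40 tests passed, 0 had an unadjusted p under 0.05, and DESeq2 called 0, with log2 values of -0.37 to 0.26. The share of all genes that passed was 7.46% for P45 against EV, 5.0% for L7d against EV, 0.473% for L1d against EV and 0.00666% for HMGd against EV. It was 4.88% for HMGd against P45, 0.00666% for L7d against P45 and 0.06% for L1d against L7d. These comparisons share the P45 and EV libraries. Without the TMM factor, the share of called genes that were higher was 43.2% against 23.4% with it for P45 against EV, 76.9% against 42.3% for L1d against EV and 60.6% against 34% for L7d against EV. P45 against EV, which adds wild type TCF-1 to deficient cells, gave -0.17 for Mpo (0.648 to 1.22-fold), -0.16 for Elane (0.696 to 1.15-fold), -0.22 for Prtn3 (0.614 to 1.21-fold), 0.07 for Ctsg (0.79 to 1.39-fold) and -0.04 for Ms4a3 (0.738 to 1.29-fold). In the order of group means, the neighbours among DN1 groups overlapped in their replicates for all 5 genes, except that P45 lay above L7d for Mpo and L1d above P45 for Elane. Some groups further apart in the order did separate, but the share of all genes that do so was not computed. With 2 replicates a group such a separation is no test, and 0 of the 40 tests passed.

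Genes of later granule stages were followed as a list beside the 5. The list held 16, among them Ltf (lactoferrin), Camp (the cathelicidin), Ngp, Lcn2, S100a8, S100a9, Itgam and Ly6g, and all 16 were tested. In DN1 P45 against DN1 EV cells 14 of 16 were lower and 0 higher, where 5.72% of all genes were lower, with a median of -1.42, while the median of the 5 primary granule genes was -0.16. Camp had 108 and 138 CPM in DN1 P45 cells, against 494 and 475 CPM in DN1 EV cells, and fell by 1.97 on the log2 scale (SE 0.21, edgeR adjusted p = 3.25e-05). Itgam, the integrin chain CD11b, fell by 1.43 (SE 0.14, adjusted p = 1.44e-05) and Ly6g, a neutrophil surface protein, by 2.72 (SE 0.27, adjusted p = 1.6e-05). With L1d in place of P45 in DN1 cells, 8 of the 16 were higher and 0 lower, where 1.22% of all genes were higher, with a median of 1.05 beside 0.1 for the 5. With a replicate left out, the count of late genes was 9 to 13 for P45 against EV (9 without DN1 P45 replicate 2). For L1d against P45 it was 4 without DN1 L1d replicate 1, 2 without DN1 P45 replicate 2, and 0 without either of the other replicates, while the median stayed at 1.0 to 1.08. Eosinophil markers moved with them. In P45 against EV 6 of 7 were lower, with sums of 53.0 and 66.8 CPM in P45 and 251 and 459 CPM in EV cells, and with L1d, at 167 and 166 CPM, 3 of 7 were higher than with P45; with a replicate left out these counts were 3 to 6 and 0. Of the 7 mast cell and basophil markers tested 4 were lower with P45 than with EV, and 1 was higher with L1d than with P45. Their part in the change of the late genes was not tested.

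**Figure D4:**
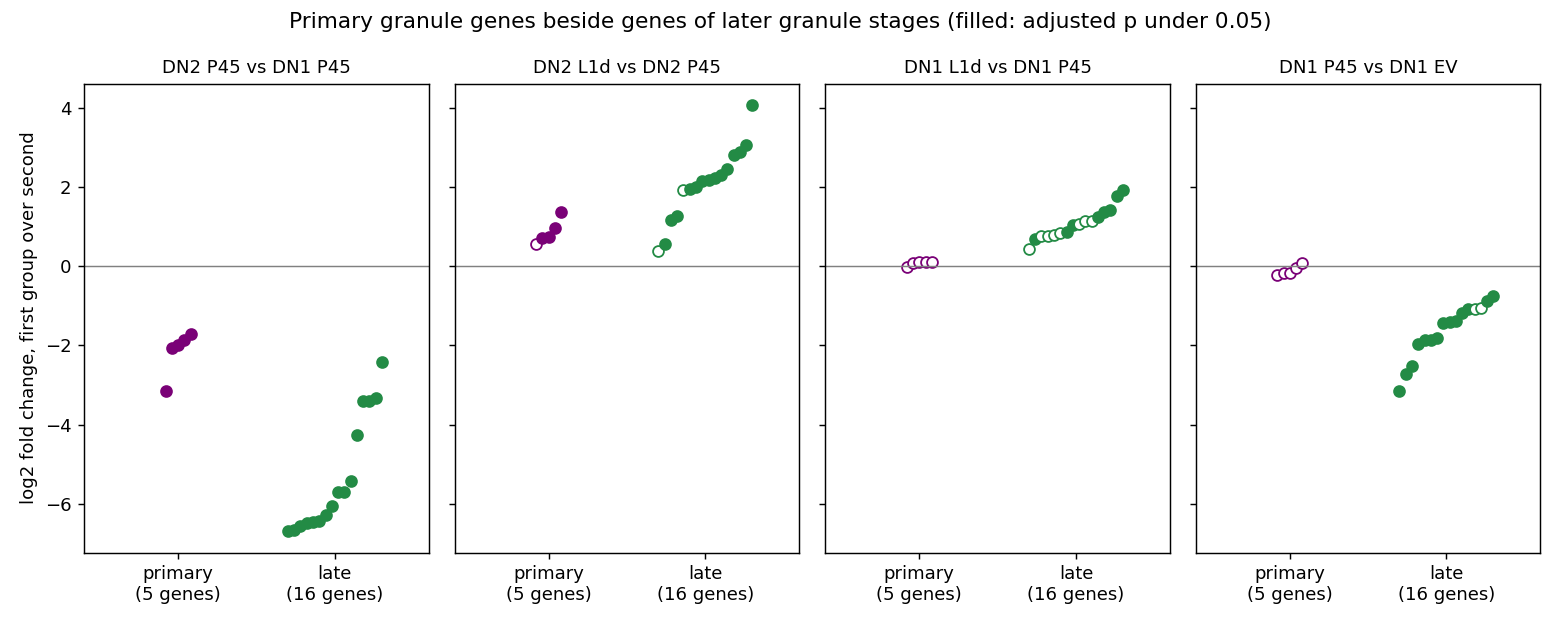
Log2 fold changes of the 5 primary granule genes (purple) and 16 genes of later granule stages (green) in 4 comparisons; each point is a gene and filled points passed an adjusted p of 0.05. Both groups of genes shift in the first 2 panels, and in the 2 DN1 panels 0 of the 5 are filled.

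Between the stages the late genes fell much further. All 16 were lower in DN2 P45 than in DN1 P45 cells, where 22.6% of all genes were lower. Their median was -5.89, beside -2.0 for the 5. Camp had 1.22 and 1.6 CPM in DN2 P45 cells, against 108 and 138 CPM in DN1 P45 cells, and fell by 6.44 (SE 0.33, edgeR adjusted p = 1.25e-09). In DN2 L1d against DN2 P45 cells 14 of 16 were higher and 0 lower, where 8.05% of all genes were higher, with a median of 2.17 beside 0.74 for the 5. The count was 6 without DN2 L1d replicate 2 (median 1.3) and 8 without DN2 P45 replicate 1 (median 1.9). The 2 L1d replicates were ordered differently by the 2 groups of genes. Replicate 1 had the higher sum of the 5 genes, 4546 CPM against 3330 CPM in replicate 2, while replicate 1 had the lower sum of the 16 late genes, 776 CPM against 1478 CPM. Late genes and the 5 genes are set side by side here, and the difference between the lists was not tested.

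Markers of other cells moved with the L1d difference in DN2. Of 11 T lineage markers tested 9 were lower and 0 higher, with summed levels of 492 and 414 CPM in L1d cells, against 1479 and 1343 CPM in P45 cells. Il2ra had 448 and 373 CPM in DN2 L1d cells, against 1278 and 1183 CPM in DN2 P45 cells, and fell by 1.58 (SE 0.21, edgeR adjusted p = 0.000232). Cd3g had 0 reads in both DN2 L1d replicates, against 299 and 88 reads in DN2 P45 cells, and Cd3e and Cd3d had 0 reads in DN2 L1d cells, against 22 and 8 reads for Cd3e and 21 and 5 reads for Cd3d in DN2 P45 cells. Ptcra had 0 reads in DN2 L1d cells and only 0 and 2 reads in DN2 P45 cells, too few to compare. Of 7 monocyte markers Irf8 and Csf1r were higher (sums 863 and 891 CPM in L1d, 688 and 630 CPM in P45), and of 7 mast cell and basophil markers tested 4 were higher (sums 244 and 235 CPM in L1d, 144 and 157 CPM in P45). Of the eosinophil markers 0 of 7 passed (1.17 and 1.6 CPM in L1d, 0.739 and 1.14 CPM in P45), of the stromal markers 0 of 5 (54.1 and 403 CPM in L1d, 78.3 and 236 CPM in P45), of the B lineage markers 0 of 6, and of the erythroid and dendritic markers 1 of 5 and 1 of 4 were higher. With a replicate left out, the count was 6 to 9 for the T lineage and 0 to 3 for monocyte markers. The part of these cells in the higher granule genes was not tested.

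Across the 6 DN2 replicates the 5 genes and the T lineage markers ran in nearly opposite orders. The sum of the 5 was 4546 and 3330 CPM with L1d, 1120 and 1902 CPM with L7d and 1667 and 1686 CPM with P45. The sum of the 13 T lineage markers was 492 and 414 CPM with L1d, 1352 and 754 CPM with L7d and 1479 and 1343 CPM with P45. Il2ra, the sort gene, made up most of that sum, and without it the other 12 markers summed to 43.96 and 40.97 CPM with L1d, 174 and 66.7 CPM with L7d and 201 and 160 CPM with P45. L7d replicate 1 was lowest in granule genes, while L7d replicate 2 was highest of the 4 replicates without L1d and had the lowest T lineage sum among those 4, with or without Il2ra.

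**Figure D5:**
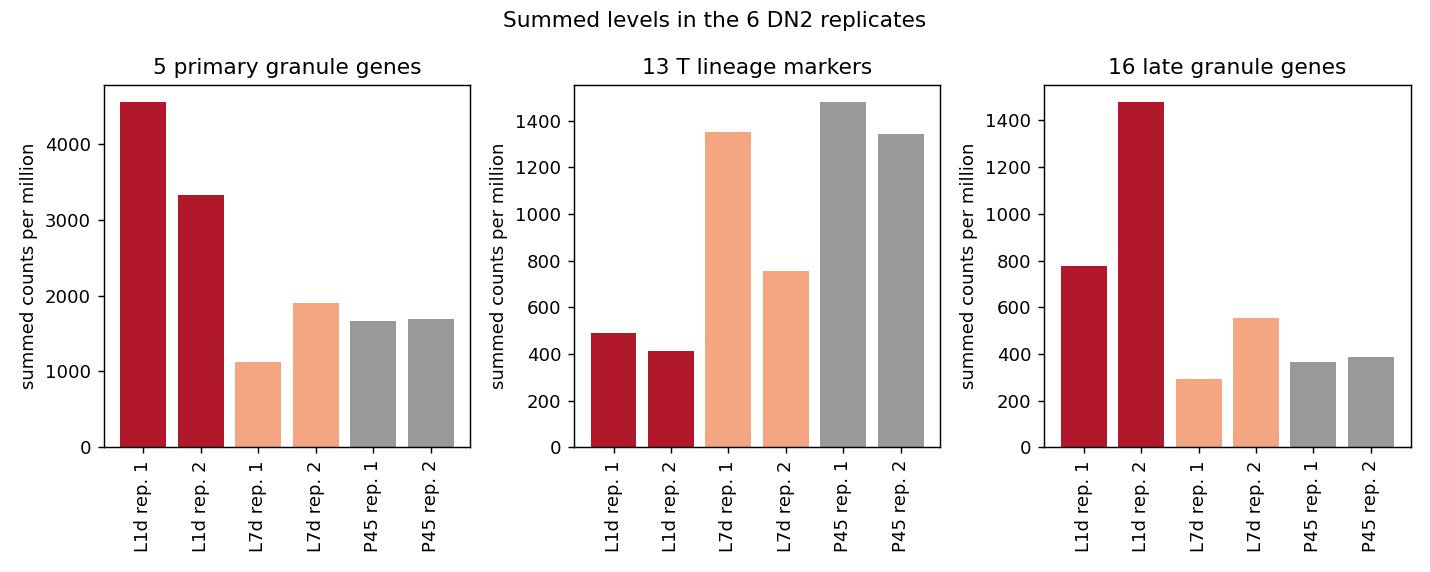
Summed CPM of the 5 primary granule genes, 13 T lineage markers and 16 late granule genes in each of the 6 DN2 replicates; each bar is a replicate and axes start at 0. The L1d replicates have the highest granule bars and the lowest T lineage bars, and replicate 2 of L1d exceeds replicate 1 in late granule genes only.

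Other cargo of the same granules was also mostly lower in DN2. Of 10 cargo genes tested out of 11, 9 were lower in DN2 P45 than in DN1 P45 cells and 0 higher, with a median of -1.01. Of all genes 22.6% were lower there. Lyz2, the lysozyme of myeloid cells, had 140 and 155 CPM in DN2 P45 cells, against 1702 and 1878 CPM in DN1 P45 cells (log2 -3.6, SE 0.23, edgeR adjusted p = 1.15e-08). Hexa, a lysosomal hexosaminidase subunit, fell by 0.99, and Asah1, the acid ceramidase, fell by 0.76. Of all genes 8.05% were higher with L1d than with P45 in DN2 cells. With L1d in DN2 cells 4 of the 10 were higher than with P45, among them Hexa by 0.5 and Asah1 by 0.28 on the log2 scale; the count was 0 without DN2 L1d replicate 2 and 1 without DN2 P45 replicate 1.

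Genes that activate, pack or sort the cargo had smaller median differences. Of 15 tested, 10 were lower in DN2 P45 than in DN1 P45 cells and 0 higher, with a median of -0.39, where 22.6% of all genes were lower. Ctsc, the protease that removes the propeptides of Elane, Prtn3 and Ctsg, had 195 and 193 CPM in DN2 P45 cells, against 623 and 571 CPM in DN1 P45 cells (log2 -1.62, SE 0.11, edgeR adjusted p = 2.64e-08). Lyst, whose loss causes the giant granules of Chediak-Higashi syndrome, fell by 1.8 and Cd63, a membrane protein of the granules, by 1.13. In DN2 L1d against DN2 P45 cells Cd63, Cd68, Srgn and Ap3b1 were higher, 4 of 15, and 1 to 3 with a replicate left out (1 without either DN2 P45 replicate, 2 without DN2 L1d replicate 2). Of all genes 8.05% were higher with L1d than with P45 in DN2 cells. Among the genes for protease inhibitors 5 of 14 passed the filter on low counts. Serpinb1a, an inhibitor of neutrophil serine proteases, fell by 1.47 in DN2 P45 against DN1 P45 cells, while Serpinb6b rose by 2.7.

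The haem that Mpo needs as its cofactor is made by a pathway whose first enzyme is 5-aminolevulinate synthase. Alas1, the housekeeping form of 5-aminolevulinate synthase, had 91.2 and 82.5 CPM in DN2 P45 cells, against 334 and 316 CPM in DN1 P45 cells, and fell by 1.9 (SE 0.2, edgeR adjusted p = 1.82e-06). In DN2 L1d cells it had 174 and 141 CPM, a rise of 0.86 over P45 (SE 0.2, adjusted p = 0.012). Of 10 genes of haem synthesis and peroxidase folding tested 3 were lower in DN2 P45 than in DN1 P45 cells, where 22.6% of all genes were lower. Alad alone was higher, by 0.83. With L1d in DN2 cells only Alas1 was higher than with P45, where 8.05% of all genes were higher. These counts were not far from the shares of all genes. With a replicate left out these counts were 1 to 3 lower between the stages and 0 to 1 higher with L1d.

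Likeness was measured as Pearson's r over the 16 replicates between each gene's log2 CPM and the mean of the 5 after scaling, among 9614 genes with a mean of at least 5 CPM. The 10 highest were Alas1 (0.994), Cldn15, Lbp, Thbs1, Gda, Hk3, Anxa3, Mtus1, Dirc2 and Tcn2 (0.989). The points share the stage difference and their libraries, so r mostly reflects DN1 against DN2. The differences of these 10 genes between stages and constructs follow from that choice and are not given as results. Those of Alas1 are given above because it was on the list of haem synthesis genes. They are no separate support for its likeness. Each of the 5 genes had an r of 0.973 to 0.996 with the mean of the other 4. Within the stages, r between pairs of the 5 was 0.93 to 1.0 over the 6 DN2 and 0.76 to 0.94 over the 10 DN1 replicates.

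Factors known to act on granule genes were followed as a list of 10. In DN2 P45 against DN1 P45 cells 7 were lower and 2 higher, with a median of -1.08. Cebpe, which drives the promyelocyte to myelocyte step, had 5.09 and 4.89 CPM in DN2 P45 cells, against 46.9 and 51.2 CPM in DN1 P45 cells (log2 -3.3, SE 0.17, edgeR adjusted p = 1.01e-09). Cebpd fell by 2.0, Gfi1, a repressor needed for neutrophil formation, by 1.85 and Spi1, which encodes PU.1, by 1.04. In DN2 L1d against DN2 P45 cells 5 of the 10 were higher and 0 lower, where 8.05% of all genes were higher. They were Cebpe by 1.34 (SE 0.19, edgeR adjusted p = 0.00043), Cebpa by 0.96, Gfi1 by 0.77, Irf8 by 0.44 and Spi1 by 0.22 (adjusted p = 0.0497). The count was 2 without either DN2 P45 replicate and 3 without DN2 L1d replicate 2. In DN1 P45 against DN1 EV cells Gfi1, Cebpe, Spi1 and Cebpd were lower, Gfi1 by 1.21 (SE 0.14, adjusted p = 7.19e-05) and Cebpe by 0.83, although none of the 5 granule genes passed there; with a replicate left out 2 to 3 of the 10 were lower.

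The genes next to the 5 in the genome moved in both directions. Of 19 neighbours tested out of 22, 5 were higher and 7 lower in DN2 P45 than in DN1 P45 cells. Genes at large did so too, with 3095 higher and 3398 lower of the 15010 tested. Beside Prtn3 and Elane, Med16 had 43.5 and 39.7 CPM in DN2 P45 and 42.5 and 43.6 CPM in DN1 P45 cells, and R3hdm4 fell by 0.66. Gzmb, a granzyme gene of the Ctsg cluster, rose by 3.14 (SE 0.26, edgeR adjusted p = 1.74e-07), opposite to Ctsg. Epx, the eosinophil peroxidase gene near Mpo, had 0.0435 CPM and 0 reads in DN2 P45 cells, against 7.99 and 11.1 CPM in DN1 P45 cells. Among the Ms4a genes Ms4a6d fell by 1.63 between the stages.

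Receptors of myeloid cells and progenitors moved in both directions. In DN2 P45 against DN1 P45 cells 7 of 10 were lower and 3 higher, beside 3398 lower and 3095 higher of all 15010 genes. Csf3r, the G-CSF receptor, fell by 2.8 and Csf2ra by 2.03, while Kit and Cd34, expressed on progenitors, rose by 1.43 and 1.8. Of all genes 8.05% were higher with L1d than with P45 in DN2 cells. In DN2 L1d against DN2 P45 cells 6 of 10 were higher, among them Csf3r by 1.06 (SE 0.19, edgeR adjusted p = 0.00233) and Csf2rb by 0.81; the count was 2 without DN2 L1d replicate 2 or either DN2 P45 replicate.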

How the data were processed

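Libraries were made with a stranded total RNA kit, per the labels' protocols. The submitters' processing notes name STAR 2.5.0a, HTSeq 0.6.1 and the build GRCm38. The deposited values are the authors' whole-number read counts per gene, not normalized, in 3 columns for both strands, forward and reverse. The reverse-strand column was used, since the forward one held 4.88% to 6.97% of stranded gene reads in primary cells. Of primary reads, 56.1% to 68.6% were not counted in genes. Symbols and positions came from GENCODE M21 (45143 of 45706 genes matched). The protocol describes RNA libraries, although the labels give the molecule as genomic DNA.

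Of 59 samples given, 58 were used, 44 primary and 14 of the cell line. DN1 L1d replicate 1, library 3, was left out because its file stops after 14312 genes. No 2 libraries were identical. Libraries sharing a B number were summed. The meaning of B and T is not stated in the labels. Libraries with the same B number varied by 4.93% and replicates by 9.2% (biological coefficient of variation).

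Counts of the 16 replicates were fitted together in edgeR 4.0.16 (R 4.3.3; filterByExpr, TMM factors of 0.888 to 1.14, quasi-likelihood test, 8 residual degrees of freedom). P-values were adjusted by Benjamini-Hochberg over 15010 genes and called under 0.05. All 5 genes passed the filter. CPM are scaled by TMM, and folds carry a prior count of 0.125. The fit was tested on simulated data in which all genes had a common spread and only the DN1 L1d group was changed. That test does not cover differences in spread between genes. Alternatives were DESeq2 1.42.0, other scalings, no filter, counts ignoring strand, each T library as a replicate, the replicate block, only the groups compared, and leaving out replicates.

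The 5 genes and all lists were chosen with earlier results of these data known. Genes named from a list are those called with the smallest adjusted p, at most 4 per list and comparison. Others, named for their neighbourhood or role, were chosen after their values were seen. Some called genes of the cargo list are not reported by name here. List counts with a replicate left out were added after the data were seen.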

Additional observations from a re-analysis of the deposited data

Results flagged for a closer look

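In the scid.adh thymic lymphoma line, which entered no comparison, 1 of the 5 genes exceeded 3 reads, in 1 of the 14 libraries. Mpo reached 6 reads in a library of the construct labelled DL1, equal to 1.17 CPM and above the 3 reads that a count of 0 allows. The other DL1 library had 0 Mpo reads, although it was deeper (8.99 against 5.14 M reads in genes). Mpo had 13 reads over all 14 libraries, with 8 libraries at 0. Prtn3 had 6 reads in all and at most 2 in a library, and Elane, Ctsg and Ms4a3 had 0 reads in all 14. A count of 0 allows up to 0.316 CPM in the deepest and 0.785 CPM in the shallowest library, for counting error only.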

How the results depend on the processing

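In the stage comparisons 5 of 5 genes were called for P45 and L7d, with each replicate left out too, and 4 to 5 for L1d. No gene of the 5 changed sign in the stage comparisons or in DN2 L1d against P45 or L7d. Signs did vary where no gene was called, as for Mpo in DN2 L7d against P45 (-0.63 to 0.22) and in DN1 HMGd against P45 (-0.27 to 0.27). Among members, DN2 L1d against P45 gave 4, 2 with only the groups compared, and 1 to 4 with a replicate left out; DN2 L1d against L7d gave 4, 0 with only the groups compared, and 1 to 5. For DN2 L7d against P45 and for DN1 HMGd against P45 the count was 0, and 1 without the low-count filter. DN1 P45 against EV gave 0, and 1 with only the groups compared. DN1 L7d against EV gave 0, 2 without the filter, 1 with each T library as a replicate and 2 with only the groups compared. DN1 HMGd against EV gave 0, and 2 without the filter. The interaction of L1d with stage gave 0, 1 in DESeq2, 5 without the filter, 4 with T libraries, 2 with only the groups compared and 0 to 1 with a replicate left out.

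Of all genes, DN1 L1d against P45 called 200, 96 without the TMM factor, 474 without the filter, 1169 with T libraries, 578 with only the groups compared and 5 to 50 with a replicate left out. DN2 L1d against P45 called 1630, 3543 with T libraries, 750 with only the groups compared and 527 to 1958. The interaction called 237, 443 in DESeq2, 130 without TMM, 988 without the filter, 1721 with T libraries and 59 to 544. T libraries of a B replicate are not independent samples, and the other causes were not tested.

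The 10 ratios, chosen after their values were seen, kept their side of the threshold in 13 alternatives each, Prtn3 over Ms4a3 in 12. Of the 13 alternatives, 12 left out a replicate. For ratios whose stages lay apart that outcome was fixed in advance, because leaving out a point cannot make the ranges overlap.

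With the replicate block, the interaction called 516 genes and 1 of the 5, Mpo (adjusted p = 0.0302), and no other count of the 5 genes moved. Same-numbered replicates were not shown to be paired: their deviations correlated at -0.0333 to 0.255 over 28 pairs of groups, with 11 above 0.1. The 3 pairs among DN2 groups stood at 0.181 to 0.255, while L1d and P45 in DN1 correlated at 0.0415.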
